A study of Mus musculus with 8 samples.

Results

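Potassium channel genes were taken as every mouse gene whose symbol is Kcn followed by a letter and a number, from Kcna to Kcnv, without Kcnj13 and Kcne2. The rule gave 81 genes, all with at least 1 probe on the array, among 21368 genes named in all. Hippocampal RNA of 8 female mice was measured on 1-colour Agilent arrays, 1 array per mouse. All 8 were nontransgenic littermates of APPswe695/PSEN1dE9 mice on a C57BL/6J background, so none carried the amyloid transgenes. The 4 Control mice were untreated and 19 weeks old. The 4 Hydroxyurea mice drank water with hydroxyurea, a ribonucleotide reductase inhibitor, at 45 mg/kg/day for 10 weeks; Hydroxyurea 1 and 2 were 24 weeks old at the end and Hydroxyurea 3 and 4 were 19 weeks old. The comparison asks what hydroxyurea does to hippocampal RNA in mice without the disease transgenes.

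Potassium channels let potassium leave the cell and so set the resting potential of neurons, end their action potentials and limit how often they fire. Voltage-gated alpha subunits open on depolarisation, inward rectifiers and two-pore channels act near rest, and calcium-activated channels open after spikes. In the hippocampus, A-type channels limit spikes that spread back into pyramidal cell dendrites, M-type channels are closed by acetylcholine, and an inward rectifier of astrocytes takes up potassium released by firing neurons.

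All values below are log2 of the processed spot signal minus the 75th percentile of the signal on the same array, so 0 is the level of a bright probe. Probes differ in how brightly they hybridise, so levels of different genes are not set against each other. Only genes whose probe stood well above background on 4 or more of the 8 arrays, with a usable value on 6 or more, entered the test. Of the 81 members, 71 were tested, and 65 were well above background on all 8 arrays. The 75th percentile was 1677 to 2417 on the Control arrays, 1052 on Hydroxyurea 2 and 1680 to 2162 on the other treated arrays, and the median coefficient of variation of replicate spots was 12.9% on Control 1 against 3.72% to 4.44% elsewhere. With 4 arrays per group, the number of mice limits the precision. The Control arrays lay in row 1 of the slide and the treated arrays in row 2, so row and treatment cannot be told apart. In whole tissue, fewer cells of a type and less RNA per cell cannot be told apart either. Markers of hippocampal neurons were all detected, at summed levels of 162 to 205 in the Control mice and 171 to 225 in the treated mice, where a level is 2 to the power of the log2 value.

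No potassium channel gene passed the test between treated and untreated hippocampus. The smallest adjusted p of a member was 0.452 (limma, Benjamini-Hochberg over all 16620 genes tested), and 0% of all genes passed. At an unadjusted p under 0.05, 1 member was higher (Kcnj5) and 4 were lower (Kcnn2, Kcna1, Kcnj14 and Kcng3) after treatment. Over all genes tested, 3.53% were higher and 6.36% lower at that threshold, or 9.89% in all, against 7.04% of the members, so the share of members was not above the background. The groups did not overlap for 1 higher member, Kcnj5, and 3 lower members, Kcnn2, Kcna1 and Kcnj14. Over all genes this held for 2.38% in the higher and 5.11% in the lower direction. The family was evenly split, with 35 members higher and 36 lower. The median log2 difference of the members was -0.00056, beside -0.0038 over all genes, and the members' lower and upper quartiles were -0.126 and 0.068. Centring each array on its median instead gave 17 members higher and 54 lower, with a median of -0.082 beside -0.085 over all genes, so the split of small differences followed the scaling of the arrays. For 54 of the 71 members the 95% interval of the difference lay within 1.5-fold in both directions, which is 76.1% beside 77.7% of all genes.

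**Figure D1:**
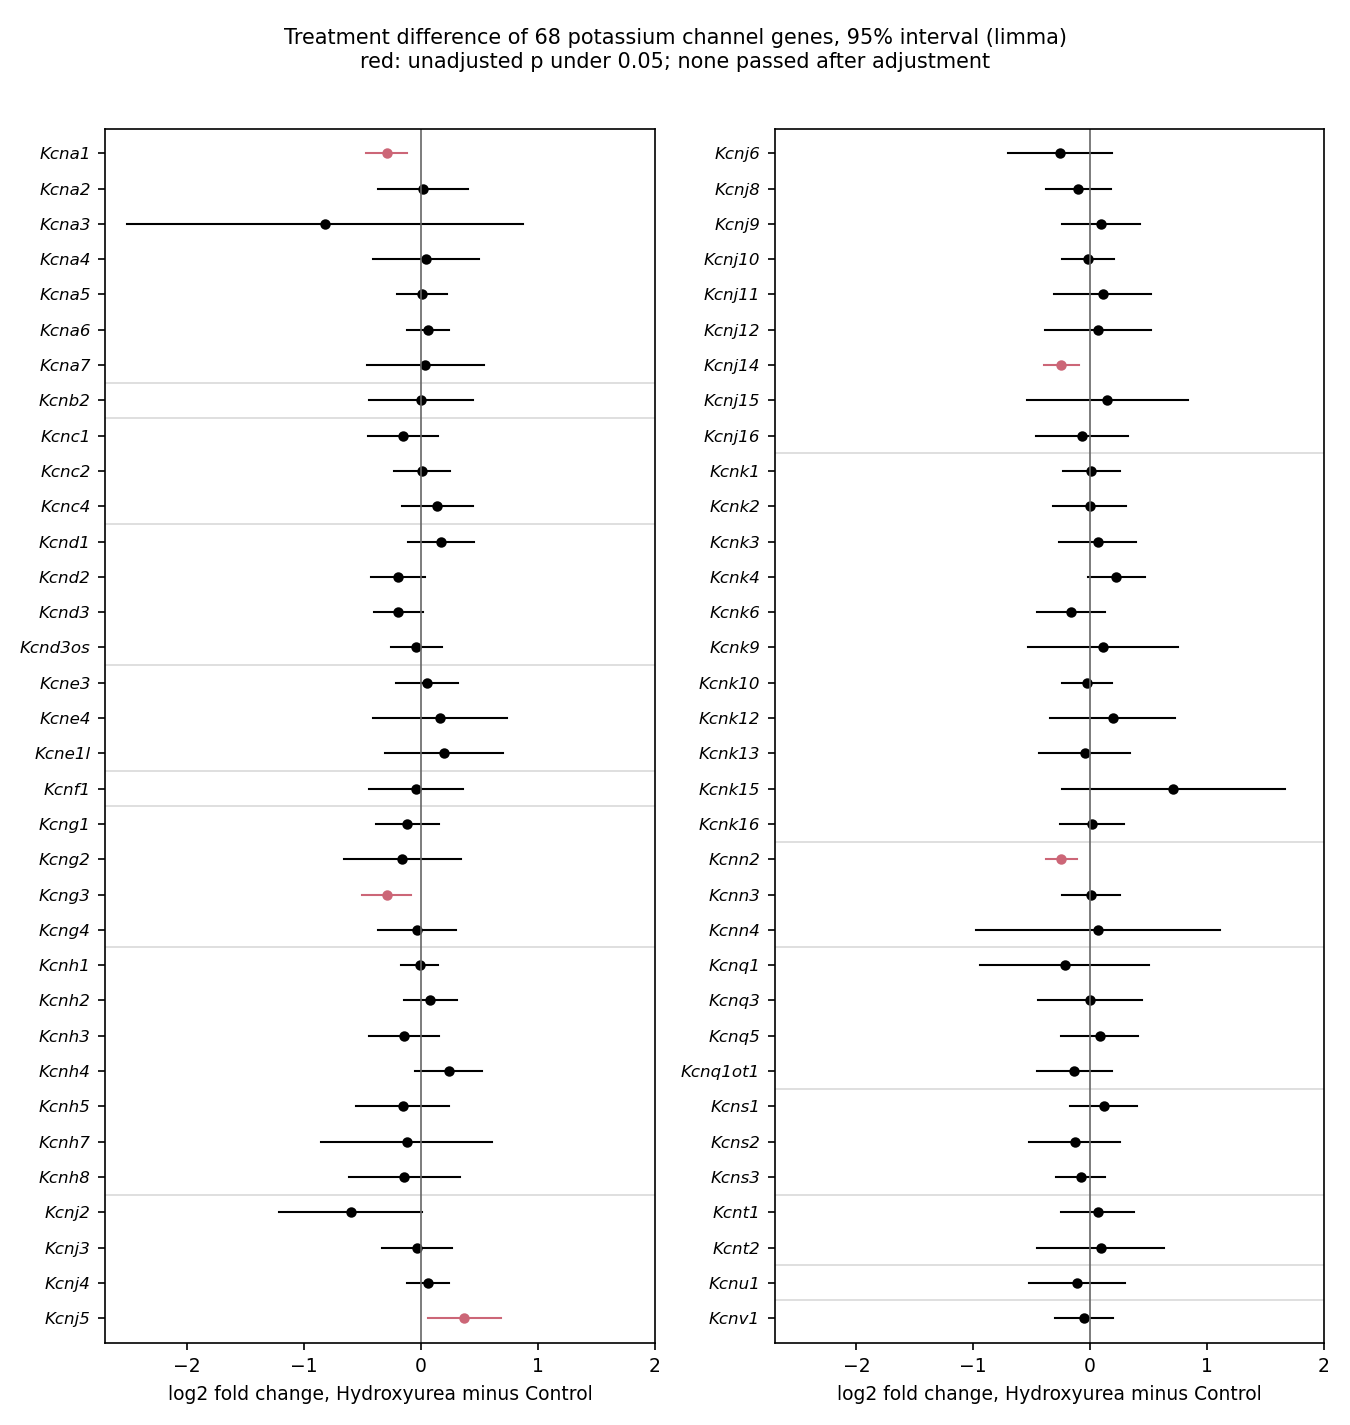
Treatment difference of 68 of the 71 members tested, ordered by subfamily from Kcna to Kcnv (points, log2 difference of Hydroxyurea minus Control; lines, 95% interval of the limma fit). The 5 members at an unadjusted p under 0.05 are red, and most points lie close to 0; Kcna3 has the widest interval.

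RefSeq promoter windows, from 250 bases before to 50 bases after a transcription start in GRCm38.p6, were found for 50 of the members tested. They are shown for Kcng3, a lower member, and Kcnj5, a higher member, both among the 5 members at an unadjusted p under 0.05. A link between the letters of a window and the direction of the difference was not tested. Capitals mark GGGCGG, the box bound by Sp factors, or its reverse complement CCGCCC. The Kcng3 window lies at chr17:83631846-83632145 on the minus strand, and the Kcnj5 window at chr9:32344295-32344594 on the minus strand.
Kcng3: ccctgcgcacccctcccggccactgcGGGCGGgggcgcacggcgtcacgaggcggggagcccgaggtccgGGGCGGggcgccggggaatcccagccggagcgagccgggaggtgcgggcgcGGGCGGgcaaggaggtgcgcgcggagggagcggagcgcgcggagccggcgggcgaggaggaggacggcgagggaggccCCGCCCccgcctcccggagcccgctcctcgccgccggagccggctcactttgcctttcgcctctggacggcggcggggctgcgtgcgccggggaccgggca
Kcnj5: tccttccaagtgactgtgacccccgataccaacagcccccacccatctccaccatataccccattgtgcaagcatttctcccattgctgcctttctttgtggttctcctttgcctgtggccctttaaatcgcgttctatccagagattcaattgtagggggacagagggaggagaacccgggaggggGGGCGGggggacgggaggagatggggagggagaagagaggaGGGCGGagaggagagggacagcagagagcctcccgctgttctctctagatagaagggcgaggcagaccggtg
The Kcng3 window held 4 such boxes and 49 CG dinucleotides in 82.0% G and C, and the Kcnj5 window held 2 boxes and 10 CG dinucleotides in 58.3% G and C. Among 64 windows of the members tested, 50% held GGGCGG on either strand, beside 35.7% of 32851 windows of all genes. The windows of all genes were not limited to genes tested, so these shares and those below compare unlike sets. TATAAA was found on either strand in 4.7% of the members' windows and 13.6% of all windows, CACGTG in 6.2% and 7.2%, CCAATC in 9.4% and 16.1%, and TGACGTCA in 0.0% and 1.8%. The median member window held 10 CG dinucleotides and 59.0% G and C, against 7 and 52.7% over all genes. No motif searched is contained in another, and a match describes the letters of a window and no more. Some members sit side by side with no protein-coding gene between them: Kcna3, Kcna2 and Kcna10 on chromosome 3, Kcna5, Kcna1 and Kcna6 on chromosome 6, Kcnj5 and Kcnj1 on chromosome 9, and Kcnj16 and Kcnj2 on chromosome 11.

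Voltage-gated alpha subunits form the pore of channels that open on depolarisation. Of 23 coding members of Kcna, Kcnb, Kcnc, Kcnd and Kcnh tested, 13 were higher and 10 lower, with a median of 0.01, and 4 were higher and 19 lower with each array centred on its median. Kcna1 encodes an axonal subunit that holds back repetitive firing, and its loss causes seizures in mice. Its log2 value was 4.36, 4.19, 4.16 and 4.25 in the Control mice, given here and below in the order of replicates 1 to 4, against 4.01, 3.89, 4.05 and 3.84 in the treated mice. Every treated mouse lay below every Control mouse. The log2 difference was -0.29 ± 0.08 (SE, n = 4 per group; limma unadjusted p = 0.00482, adjusted p = 0.452), a level 1.22-fold higher in the Control mice, and its 95% interval ran from -0.467 to -0.118. The direction was the same in all 20 alternatives that gave Kcna1 a value, each at an unadjusted p under 0.05, but in the authors' deposited z scores Kcna1 was not among the members under 0.05.

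On their brightest probes, the other Kcna subunits overlapped between the groups. Kcna2, the usual partner of Kcna1, was 0.77, 0.16, 0.05 and 0.01 in the Control mice and 0.28, 0.16, 0.42 and 0.20 in the treated mice, a difference of 0.02 ± 0.17. Control 1 stood above the other Control mice. Kcna4, an A-type subunit of axon terminals, was 1.16, 1.01, 0.50 and 0.77 against 0.80, 1.37, 0.86 and 0.60, a difference of 0.04 ± 0.20. The spread of Kcna4 within each group exceeded the difference between them. Kcna6, which lies beside Kcna1 on chromosome 6, had a difference of 0.06 ± 0.08 on its brightest probe, and 0.60 on a dimmer probe that was also well above background on all 8 arrays. That probe was -4.63, -3.66, -3.79 and -3.85 in the Control mice and -3.40, -3.49, -3.22 and -3.45 in the treated mice, with no overlap, and Kcna6 was among the members at an unadjusted p under 0.05 (limma) with the mean of all probes. The 2 probes agree in sign and differ in size. Kcna5, the other neighbour, differed by 0.01 ± 0.09, and Kcna7 by 0.04 ± 0.22.

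**Figure D2:**
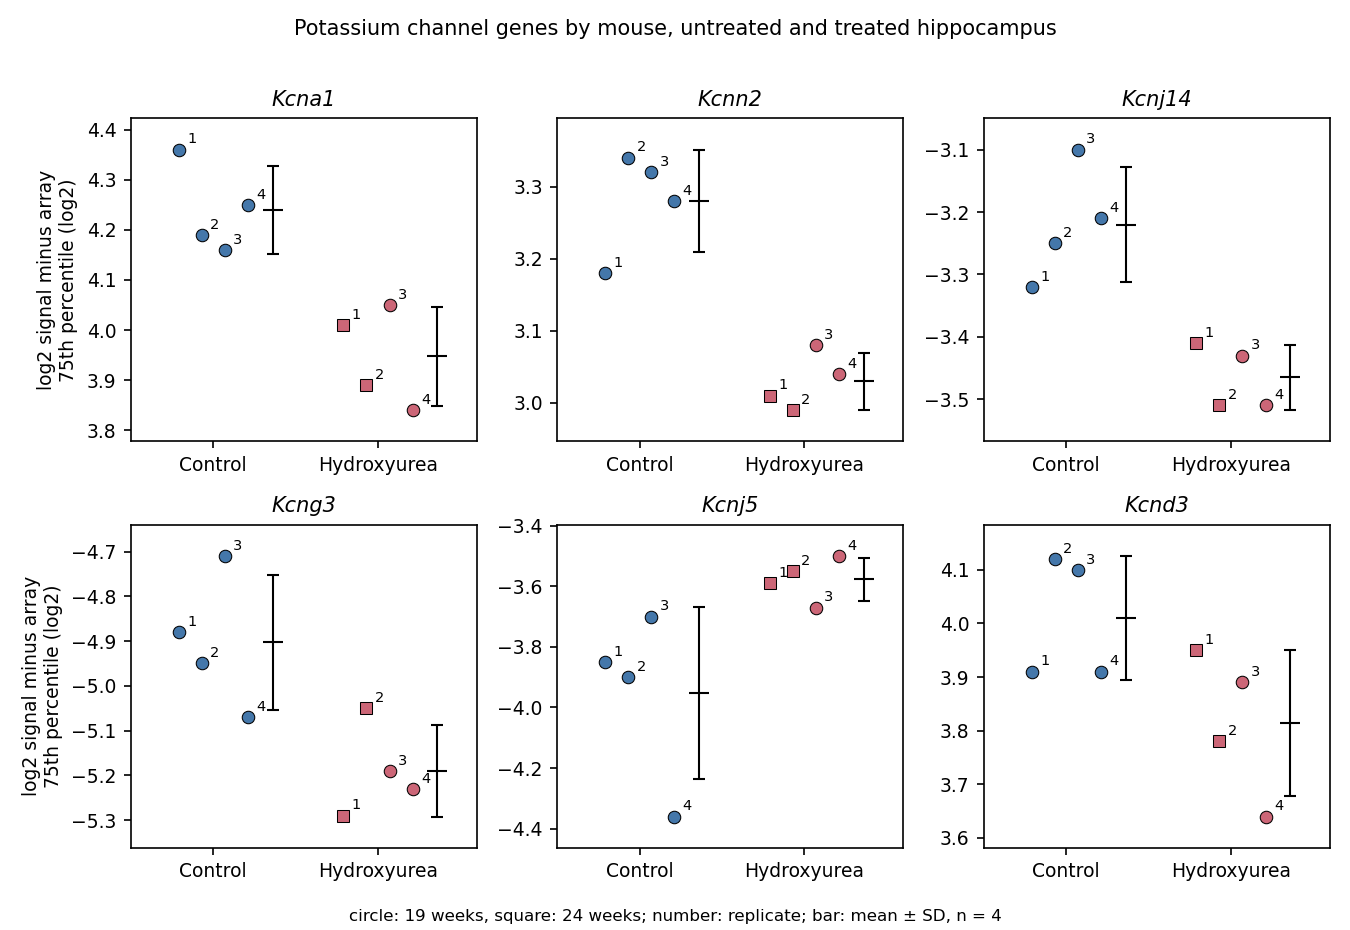
Log2 signal minus the array's 75th percentile (vertical axis) of 6 members in the 4 Control and 4 Hydroxyurea mice (points, labelled with the replicate number; squares, 24 weeks; circles, 19 weeks; bars, mean ± SD). The groups do not overlap for Kcna1, Kcnn2, Kcnj14 and Kcnj5; they overlap for Kcng3 and Kcnd3, and each panel has its own scale.

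Kcna3 had the largest difference in size of the members tested, and it came from 1 array. This delayed rectifier is best known from lymphocytes and microglia. Its log2 value was -2.49, -2.65, -2.81 and -2.75 in the Control mice and -2.52, -2.72, -6.01 and -2.72 in the treated mice. Only Hydroxyurea 3 lay apart. The log2 difference was -0.82 ± 0.73, and 0.02 without Hydroxyurea 3. On that array the spot's processed signal was 26.0 and was not well above background, against 159.5 to 345.2 on the other 7 arrays, and no outlier flag was set. The 45 spots around it deviated there by a median of -0.06 on the log2 scale from their own median over the arrays. A drop of more than 2.5 below the next lowest array was found for 25 genes tested, 20 of them on Control 1 and 5 on Hydroxyurea 3, and Kcna3 was the only member among them. Whether the low value belongs to the spot or to the RNA was not tested. The microglial markers summed to 56.9 in Hydroxyurea 3 and to 61.7 to 67.4 on the other 7 arrays.

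Kcnb, Kcnc and Kcnd subunits carry the somatic and dendritic currents of hippocampal neurons. Kcnc1, a fast rectifier of interneurons, was 2.15, 1.96, 1.95 and 2.04 in the Control mice and 1.61, 1.81, 2.24 and 1.83 in the treated mice, a difference of -0.16 ± 0.13 (mean 2.03 ± 0.09 SD in Control and 1.87 ± 0.26 SD in Hydroxyurea). The groups overlapped. Kcnc4, an A-type member of the same subfamily, was 1.80, 1.33, 1.42 and 1.26 in Control and 1.37, 1.61, 1.72 and 1.68 in Hydroxyurea, a difference of 0.14 ± 0.13. Kcnc4 was highest in Control 1, and the other Control mice lay at the low end. Kcnb2 and Kcnc2 had differences of 0.00 ± 0.19 and 0.01 ± 0.10.

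The Kcnd subunits carry the dendritic A-type current. Kcnd2, its main subunit in pyramidal cells, was 3.79, 3.78, 3.43 and 3.85 in the Control mice and 3.48, 3.62, 3.51 and 3.46 in the treated mice. Control 3 was the lowest of all 8, and the other Control mice were the highest. The difference was -0.20 ± 0.10 (limma unadjusted p = 0.0825). Kcnd3, which is also strong in interneurons, was 3.91, 4.12, 4.10 and 3.91 against 3.95, 3.78, 3.89 and 3.64, a difference of -0.19 ± 0.09 (limma unadjusted p = 0.0646). A second, dimmer Kcnd3 probe gave 0.30 in the other direction, and the mean of both probes gave 0.05, so the sign of Kcnd3 depended on the probe. Kcnd1 was -0.14, -0.02, -0.38 and -0.20 in Control and -0.10, 0.30, -0.06 and -0.20 in Hydroxyurea, a difference of 0.17 ± 0.12. Kcnd3os, a noncoding RNA named for the gene, differed by -0.04 ± 0.09.

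Kcnh channels include slow and rapidly recovering rectifiers. Kcnh4, of the ELK group, was -0.05, -0.31, -0.55 and -0.35 in the Control mice and -0.10, 0.16, -0.18 and -0.19 in the treated mice, a difference of 0.24 ± 0.12 (limma unadjusted p = 0.0915). Only Control 1 lay among the treated values. A second Kcnh4 probe was not well above background on any array, and the mean of both gave 0.04. Kcnh7, of the ERG group, was -2.76, -3.88, -4.20 and -3.40 against -3.89, -3.22, -3.56 and -4.05, a difference of -0.12 ± 0.32. Its highest and lowest values, 1.43 apart, were both of Control mice. Kcnh1, Kcnh3, Kcnh5 and Kcnh8 had differences of -0.01, -0.15, -0.16 and -0.14, each smaller than 2 SE.

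Modifier subunits of Kcnf, Kcng, Kcns and Kcnv form no channel alone and tune the Kcnb channels they join. Of 9 tested, 8 were lower and 1, Kcns1, was higher, with a median of -0.079 and a range from -0.29 to 0.12. Over all genes, 8520 of 16620 were lower and the median was -0.0038. Kcng3 was -4.88, -4.95, -4.71 and -5.07 in the Control mice and -5.29, -5.05, -5.19 and -5.23 in the treated mice. Hydroxyurea 2 lay just above Control 4, and otherwise the groups were apart. The difference was -0.29 ± 0.09 (limma unadjusted p = 0.0127, adjusted p = 0.472). Kcng3 was well above background on all 4 Control arrays and on 2 treated arrays, and with normexp background correction its difference was -0.06 (limma unadjusted p = 0.716). The other modifier subunits gave no unadjusted p under 0.05: Kcng1 differed by -0.12 ± 0.12, Kcng2 by -0.16 ± 0.22, Kcng4 by -0.04 ± 0.15, Kcnf1 by -0.04 ± 0.17, Kcns2 by -0.13 ± 0.17, Kcns3 by -0.08 ± 0.09 and Kcnv1 by -0.06 ± 0.11. Kcns1 differed by 0.12 ± 0.12. Of the 9 modifier subunits, 8 were also lower with quantile and with median scaling, and 6 with normexp. Dimmer probes of Kcng2 and Kcnf1, well above background on all 8 arrays, gave 0.03 and 0.01, in the other direction.

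M-type channels of the Kcnq family are the brake on firing that acetylcholine releases. Kcnq3, one of their neuronal subunits, was -1.43, -1.89, -2.30 and -1.67 in the Control mice and -1.87, -1.60, -1.71 and -2.12 in the treated mice, a difference of 0.00 ± 0.19. The groups overlapped. Kcnq5, a subunit of hippocampal afterhyperpolarisation currents, was 0.39, 0.35, 0.18 and 0.16 against 0.58, -0.05, 0.53 and 0.35, a difference of 0.08 ± 0.14. Kcnq1, best known from heart and inner ear, was -4.87, -3.74, -3.82 and -3.66 in Control and -4.52, -4.56, -4.26 and -3.62 in Hydroxyurea, a difference of -0.22 ± 0.31. Control 1 was the lowest of the Kcnq1 values. Kcnq1ot1, the noncoding antisense RNA of the Kcnq1 locus, differed by -0.14 ± 0.14. Among the Kcne genes, whose small proteins join Kcnq1 and other pores, Kcne3, Kcne4 and Kcne1l were each higher, by 0.05, 0.16 and 0.20, with SEs of 0.11, 0.25 and 0.22.

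Inward rectifiers pass potassium near the resting potential. Of 13 Kcnj members tested, 6 were higher and 7 lower, with a median of -0.015, and 4 and 9 with median centring. Kcnj14, a rectifier of the classical, strongly rectifying group, was -3.32, -3.25, -3.10 and -3.21 in the Control mice and -3.41, -3.51, -3.43 and -3.51 in the treated mice. Every treated mouse lay below every Control mouse. The difference was -0.25 ± 0.07 (SE, n = 4 per group; limma unadjusted p = 0.00545, adjusted p = 0.452). The unadjusted p stayed under 0.05 in 18 of 20 alternatives and was 0.0709 with normexp, where the difference was -0.18, and 0.145 with the mean of both probes, where it was -0.46. The second Kcnj14 probe was well above background on only 2 arrays. Kcnj4, of the same group, differed by 0.06 ± 0.08, and Kcnj12 by 0.07 ± 0.20.

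Kcnj2, the best known strong inward rectifier, was -4.24, -4.70, -4.90 and -4.56 in the Control mice and -4.54, -5.06, -5.80 and -5.40 in the treated mice. The 19-week treated mice, Hydroxyurea 3 and 4, were the lowest, and Hydroxyurea 1 lay among the Control values. The difference was -0.60 ± 0.27 (limma unadjusted p = 0.0537). Among 19-week mice alone it was -1.0 (limma unadjusted p = 0.00306, 4 against 2 mice). The probe was well above background on only 2 treated arrays, and normexp background correction gave -0.03, so the size of this difference depended on the background correction. Kcnj16, next to Kcnj2 on chromosome 11, differed by -0.07 ± 0.17.

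The G-protein-gated channels slow neurons when inhibitory receptors are active. Kcnj5 encodes one of their subunits, known mainly from heart atria. It was -3.85, -3.90, -3.70 and -4.36 in the Control mice and -3.59, -3.55, -3.67 and -3.50 in the treated mice. Every treated mouse lay above every Control mouse, and Control 4 was the lowest. The difference was 0.37 ± 0.14 (SE, n = 4 per group; limma unadjusted p = 0.0257, adjusted p = 0.484), 1.29-fold higher in treated mice, with a 95% interval from 0.058 to 0.686. The unadjusted p rose above 0.05 in 8 of 20 alternatives, of which 4 are given here with their size. The difference was 0.30 with quantile normalization (limma unadjusted p = 0.126) and 0.37 with 19-week mice only (limma unadjusted p = 0.108). It was 0.36 without Hydroxyurea 2 (limma unadjusted p = 0.0534) and 0.35 without Hydroxyurea 4 (limma unadjusted p = 0.0595). Without Control 4 it was 0.24 (limma unadjusted p = 0.0209). In the authors' deposited z scores Kcnj5 was not among the members under 0.05. The subunits most used by neurons are Kcnj3, Kcnj6 and Kcnj9. Kcnj3 was -0.77, -0.88, -1.20 and -0.87 against -1.04, -0.74, -0.86 and -1.20, a difference of -0.03 ± 0.13. Kcnj6, read on 10 replicate spots, was -1.65, -1.90, -2.33 and -1.71 against -2.09, -1.84, -2.13 and -2.57, a difference of -0.26 ± 0.19. Kcnj9 was 1.05, 0.80, 0.74 and 0.69 against 0.67, 1.21, 1.09 and 0.69, a difference of 0.10 ± 0.15. All 3 overlapped between groups.

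Kcnj10, the astrocyte channel that takes up potassium, was 4.46, 4.10, 4.10 and 4.22 in the Control mice and 4.20, 4.07, 4.32 and 4.23 in the treated mice. The difference was -0.01 ± 0.10, with a 95% interval from -0.238 to 0.209. Control 1 was the highest, and the other mice of both groups overlapped. Astrocyte markers summed to levels of 115 to 123 in the untreated mice and of 117 to 124 after treatment. Kcnj11, the pore of channels that close when ATP is plentiful, was -1.11, -1.58, -1.95 and -1.36 against -1.61, -1.25, -1.23 and -1.48, a difference of 0.11 ± 0.18. Its vascular relative Kcnj8 differed by -0.10 ± 0.12. Kcnj15 differed by 0.15 ± 0.30 and was well above background on 4 of 8 arrays.

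Two-pore channels set the leak of potassium at rest. Of 11 Kcnk members tested, 7 were higher and 4 lower, with a median of 0.018 (4 and 7 with median centring), and none was under an unadjusted p of 0.05 (limma). Kcnk4, a leak channel opened by membrane stretch, was 0.26, -0.07, -0.17 and -0.06 in the Control mice and 0.13, 0.34, 0.29 and 0.09 in the treated mice. Control 1 lay inside the treated range and the other Control mice below it. The difference was 0.23 ± 0.11 (limma unadjusted p = 0.0672), a second Kcnk4 probe gave 0.32, and without Control 1 the difference was 0.32 (limma unadjusted p = 0.00586). On the second probe the groups were narrowly apart, with Control 4 at -2.83 and Hydroxyurea 2 at -2.82. The mean of both probes gave 0.27 (limma unadjusted p = 0.00295). The difference was 0.20 with 19-week mice only (limma unadjusted p = 0.198) and 0.15 with median centring (limma unadjusted p = 0.225). It stayed above 0 in all 21 alternatives with a value, 6 of them at an unadjusted p under 0.05. Kcnk1, a leak channel of neurons and astrocytes, was 2.85, 2.63, 2.41 and 2.74 against 2.52, 2.66, 2.71 and 2.79, a difference of 0.01 ± 0.11. Kcnk15, which carries little current alone, was -5.15, -4.90, -4.13 and -3.97 against -4.39, -2.77, -3.81 and -4.33, a difference of 0.71 ± 0.41 with a 95% interval from -0.241 to 1.666. Hydroxyurea 2 was the highest and the Control values split widely, and the groups overlapped. Kcnk16, known from pancreas, differed by 0.02 ± 0.12, and Kcnk2, Kcnk3, Kcnk6, Kcnk9, Kcnk10, Kcnk12 and Kcnk13 lay between -0.16 and 0.19.

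Calcium-activated channels open after spikes and lengthen the pause that follows. Kcnn2 encodes the small-conductance channel of hippocampal pyramidal cells. It was measured on 10 replicate spots per array, which agreed within an SD of 0.05 to 0.06 on 7 arrays and 0.23 on Control 1. Its log2 value was 3.18, 3.34, 3.32 and 3.28 in the Control mice and 3.01, 2.99, 3.08 and 3.04 in the treated mice. Every treated mouse lay below every Control mouse, and each group spread by an SD of at most 0.07. The difference was -0.25 ± 0.06 (SE, n = 4 per group; limma unadjusted p = 0.00288, adjusted p = 0.452), a level 1.19-fold higher in Control mice, with a 95% interval from -0.381 to -0.112. In all 20 alternatives that gave it a value, Kcnn2 was lower after treatment at an unadjusted p of at most 0.0334. Kcnn3, a relative, differed by 0.01 ± 0.11 on its brightest probe, where the groups overlapped. A dimmer Kcnn3 probe, well above background on all 8 arrays, was -5.56, -5.06, -4.97 and -5.13 in the Control mice and -4.58, -4.77, -4.83 and -4.71 in the treated mice, with no overlap. The sign was the same on both probes. Kcnn4, the intermediate-conductance channel of blood cells and microglia, was -7.16, -5.65, -5.29 and -5.49 against -5.94, -6.37, -6.03 and -5.00, a difference of 0.07 ± 0.45, and was well above background on 4 of 8 arrays. Kcnt1, a sodium-activated channel, was 0.68, 0.19, 0.62 and 0.18 against 0.52, 0.40, 0.64 and 0.39, a difference of 0.07 ± 0.14. Kcnt2 differed by 0.09 ± 0.24, and Kcnu1, known from sperm, by -0.11 ± 0.18.

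The 10 members not tested were mostly near background. Kcne1 and Kcnv2 were not well above background on any array. Kcnn1 passed that mark on 3 Control arrays and 0 treated arrays, Kcnh6, Kcnk5 and Kcnk18 on 2 and 0, and Kcna10 and Kcnk7 on 2 and 1. Kcnj1, the renal rectifier beside Kcnj5 on chromosome 9, passed it on 0 Control and 2 treated arrays. Its treated mean was at least 1.13-fold higher than the detection level of the Control arrays. That mean rested on the 19-week mice Hydroxyurea 3 and 4, at -5.22 and -4.68, while Hydroxyurea 1 and 2 were at -7.40 and -7.22. No such bound could be given for Kcnn1, Kcnh6, Kcnk5 and Kcnk18. Fewer members were well above background on Hydroxyurea 1, 2 and 3 than on any Control array, while Hydroxyurea 4 lay among the Control arrays. The counts were 70, 72, 76 and 77 on the 4 Control arrays against 67, 67, 68 and 74 on the treated ones. The percentage of all probes well above background was 62.1 to 76.7 against 59.6 to 69.0. The part of array sensitivity in these counts was not tested.

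Partners of these channels were read from a list of 27 genes. Of these, 23 were tested, 9 were higher, 14 were lower and none had an unadjusted p under 0.05 (limma), with a median of -0.069 beside -0.0038 over all genes. Kcnmb4, the neuronal beta subunit of the large-conductance calcium-activated channel, differed by -0.17 ± 0.08 (limma unadjusted p = 0.0505). Abcc8, the sulfonylurea receptor that pairs with Kcnj11, differed by -0.20 ± 0.10, and Kcnab1, the beta subunit of Kcna channels, by -0.23 ± 0.13. Kcnip2, a partner of Kcnd channels, differed by -0.27 ± 0.15. None of these partners passed after adjustment either.

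Single mice, or their arrays, left a mark on many members at once. Over the 71 members, the median deviation from a gene's own mean was 0.16, 0.01, -0.03 and 0.03 for Control 1 to 4 and -0.04, -0.01, 0.04 and -0.09 for the treated mice. Control 1 stood highest and Hydroxyurea 4 lowest, while over all genes the medians lay between -0.025 and 0.019. Control 1 held the highest value of 23 members, among them Kcnh7, Kcna2 and Kcns2, and of 20.6% of all genes. It also held the lowest value of 13 members and of 21% of all genes. Control 1 was the array with the largest spread of replicate spots, a median coefficient of variation of 12.9%. For 19 of 71 members, or 26.8%, Control 3 was the lowest Control mouse and Hydroxyurea 4 the lowest treated mouse, beside 15.7% of 16586 genes with a value on all 8 arrays; this pair of mice was chosen after the values were seen. They include Kcnh7, Kcnq3, Kcnj6 and Kcnk12. Hippocampal neuron markers deviated by a mean of 0.13, 0.10, -0.27 and 0.17 in the Control mice and of -0.05, 0.13, -0.05 and -0.16 in the treated mice, so Control 3 and Hydroxyurea 4 were the lowest in these too.

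**Figure D3:**
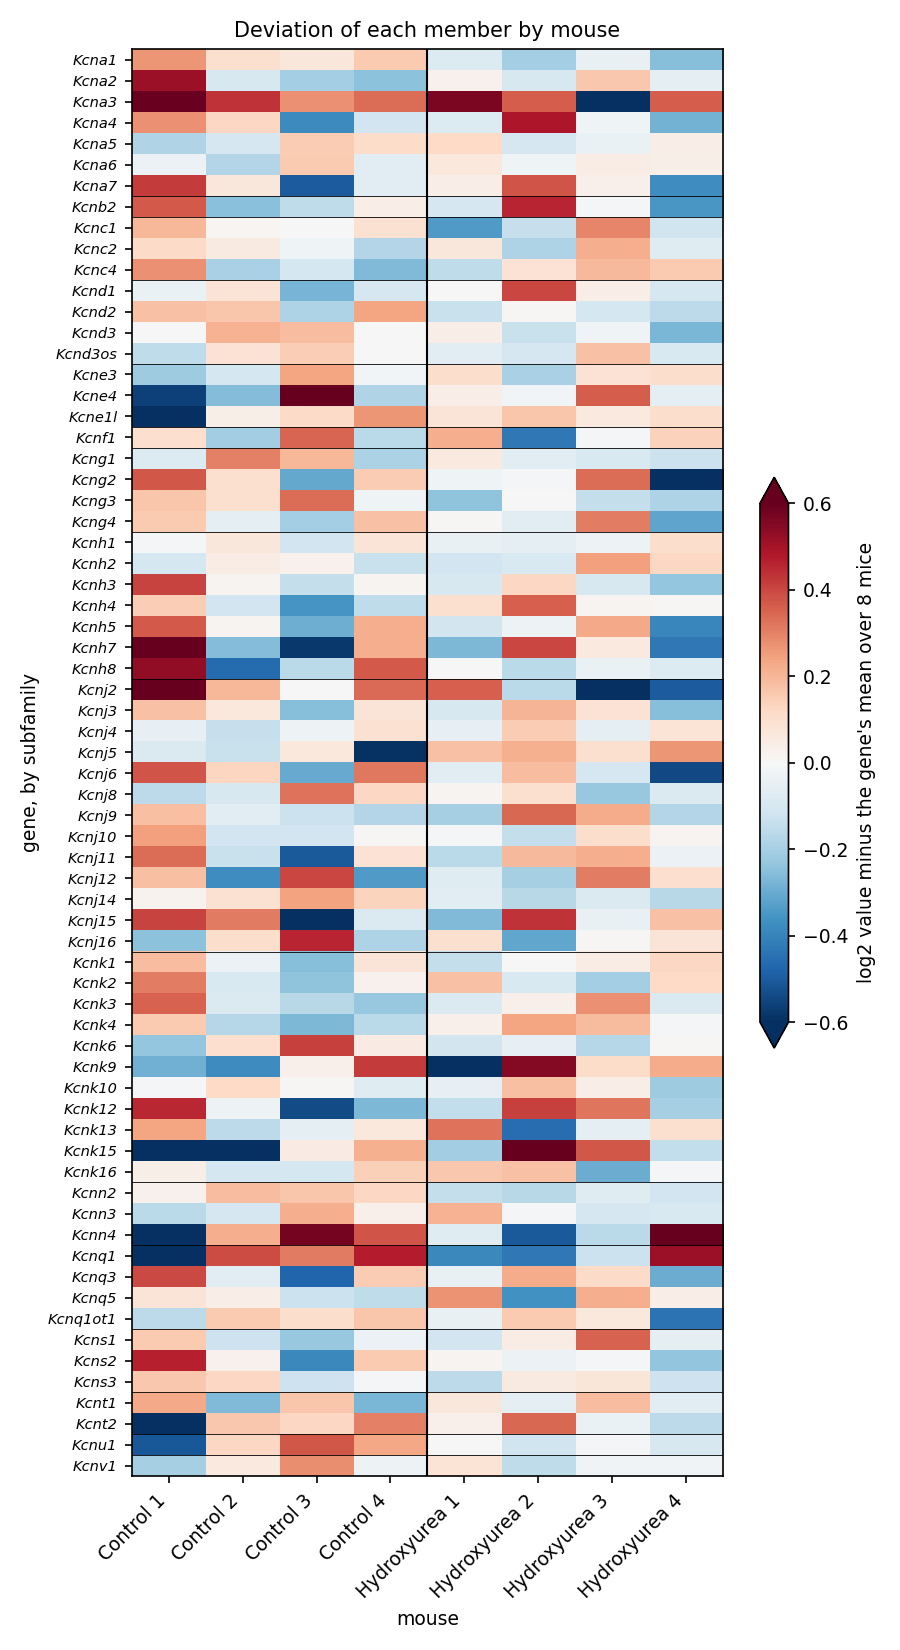
Log2 value of 68 of the 71 members minus its own mean over the 8 mice (colour, red higher and blue lower, cut off at 0.6), by mouse (columns) and subfamily (rows). Control 1 is red for many members and Kcna3 is dark blue in Hydroxyurea 3; the black line parts the groups.

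Markers of other cell types and of subfields varied beside these values. Choroid plexus markers, 14 of 14, were higher in the treated mice, with a median of 1.32 and summed levels of 8.6 to 106 in Control and 18.2 to 220 in Hydroxyurea. Their mean deviation was -2.17 in Control 1 and 2.79 in Hydroxyurea 4, the mice at the 2 ends of the channel median. Between these ends the order was not kept, as in Hydroxyurea 1, where the markers were at -1.14 and the channel median at -0.044. Dentate gyrus markers were lower for 9 of 10, with a median of -0.20 and summed levels of 18.5 to 28.9 in Control and 18.2 to 22.8 in Hydroxyurea. Neuron markers were lower for 6 of 8, with a median of -0.059 and summed levels of 162 to 205 in Control and 171 to 225 in Hydroxyurea. Among the lower ones, Camk2a differed by 0.00 and Neurod6 by -0.008, and Slc17a7 and Snap25 were higher by 0.134 and 0.156. Of 7 CA1 markers tested, 3 were higher and 4 lower, with a median of -0.031. Of 8 CA3 and CA2 markers tested, 3 were higher and 5 lower, with a median of -0.082. Ependyma markers were higher for 7 of 7 tested (median 0.491), and thalamus and habenula markers for 8 of 9 (median 0.255). All markers of the choroid plexus, dentate gyrus and neuron lists were detected. No gene of the 3 lists passed after adjustment, and at an unadjusted p under 0.05 (limma) there were 0 choroid plexus markers, 1 dentate gyrus marker and 1 neuron marker. Kcnj13 and Kcne2, which the rule leaves out, differed by 1.2 ± 0.98 and 1.18 ± 1.26. The part of the tissue makeup in the differences of Kcna1, Kcnn2 and Kcnj14 was not tested.

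**Figure D4:**
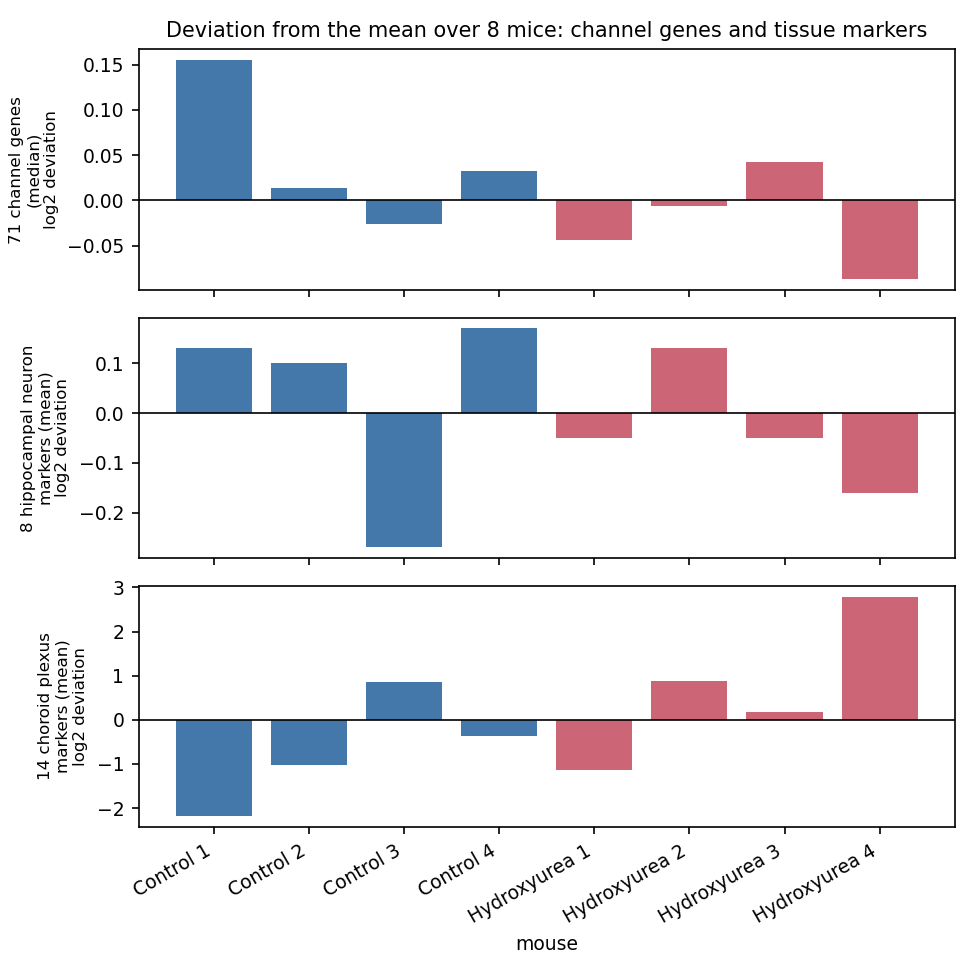
Deviation from the mean over the 8 mice (log2) of the 71 channel genes (median), 8 hippocampal neuron markers (mean) and 14 choroid plexus markers (mean) in each mouse; blue, Control; red, Hydroxyurea; each panel has its own scale. The channel median is highest in Control 1, at 0.155, where the choroid plexus markers are lowest, and lowest in Hydroxyurea 4, where they are highest. Between these ends the order is not kept. The choroid plexus markers and the channel median are at -1.14 and -0.044 in Hydroxyurea 1 and at 0.17 and 0.042 in Hydroxyurea 3.

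Age within the treated group was compared between Hydroxyurea 1 and 2, at 24 weeks, and Hydroxyurea 3 and 4, at 19 weeks. No member passed after adjustment (limma, lowest adjusted p = 1), and 0% of all genes did. At an unadjusted p under 0.05, 2 members differed, against 1.26% of all genes higher and 1.44% lower at 24 weeks. Kcnj2 was higher at 24 weeks by 0.80 ± 0.26 (limma unadjusted p = 0.0183), with means of -4.80 and -5.60. Kcnh2, the ERG channel of heart and neurons, was -1.98, -1.83, -1.85 and -2.01 in the Control mice, -1.99 and -1.97 in the 24-week treated mice and -1.63 and -1.75 in the 19-week treated mice. The 19-week treated mice lay above all the others, and the age difference was -0.29 ± 0.10 (limma unadjusted p = 0.0221). Among 19-week mice alone, Kcnh2 was higher after treatment by 0.23 (limma unadjusted p = 0.0474). Kcnk16 differed by 0.32 ± 0.13, Kcnc1 by -0.33 ± 0.15 and Kcna3, because of 1 array, by 1.74 ± 0.89, with unadjusted p-values of 0.0508, 0.0665 and 0.0924 by limma. With 2 mice at each age, the fit took much of its estimate of the spread from the Control mice.

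**Figure D5:**
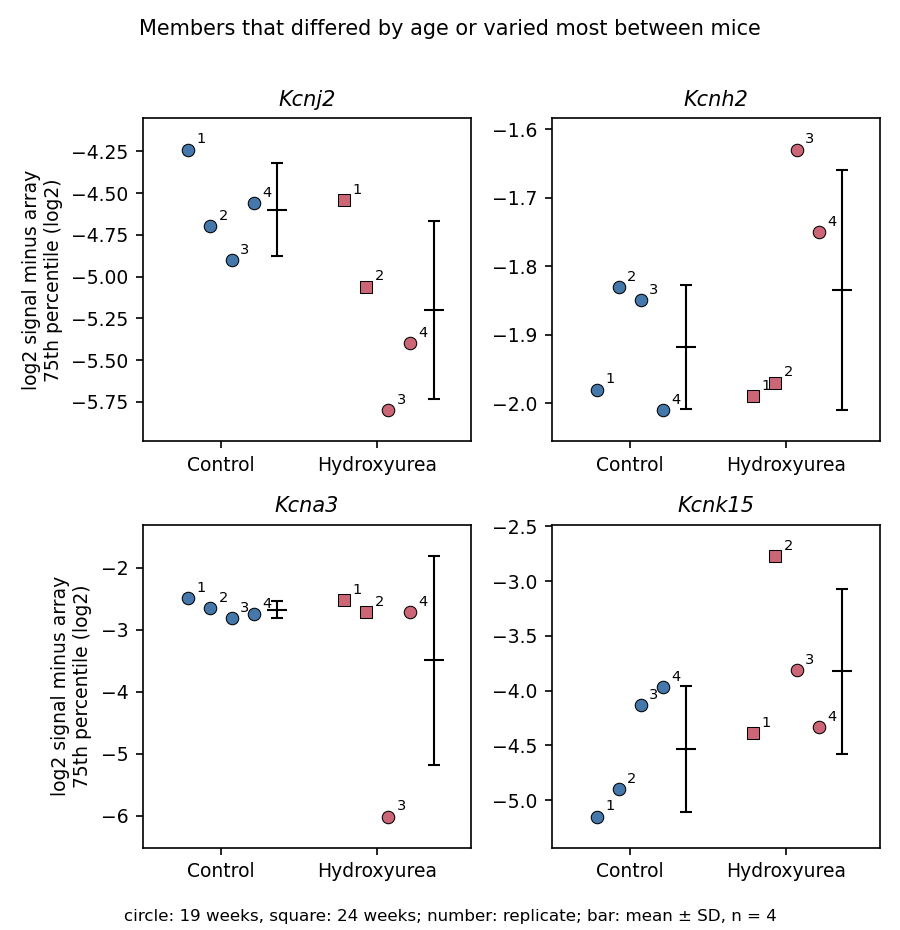
Log2 signal minus the array's 75th percentile of 4 members (points, labelled with the replicate number; squares, 24 weeks; circles, 19 weeks; bars, mean ± SD). Kcnj2 and Kcnh2 have their 19-week treated mice at opposite ends, Kcna3 is low in Hydroxyurea 3 alone, and Kcnk15 is high in Hydroxyurea 2.

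Agreement between probes bears on the smaller differences. Of 21 members with at least 2 probes above background, 11 had the same sign on every such probe and 10 did not, among them Kcna5, Kcnc1, Kcnd3, Kcne3, Kcnf1, Kcng2, Kcnj3, Kcnq5 and Kcnt2. Kcnn3, whose brightest probe gave 0.01, gave 0.46 on a dimmer probe. Kcna1, Kcnn2, Kcng3 and Kcnj5 each had 1 probe named through a RefSeq accession, so they could not be compared in this way.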

How the data were processed

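Signal was read from the scanner files that the authors deposited, 1 per mouse. Per the file headers, the processed signal intensity of a spot had its background subtracted, with no scaling between arrays. The value table the authors deposited holds a z score over the features of an array, which a recomputed z score matched within 0.005, and it was used for counts of genes. From the deposited intensity, log2 of the processed signal minus the array's 75th percentile was computed here. Probes with a RefSeq accession of 1 gene (28331 of 55681 non-control probes) were named through the GRCm38.p6 gene table; the headers name mm9 for the arrays. Spots marked as outliers were left out, and the brightest probe stood for a gene.

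Fits used limma 3.58.1 (lmFit, eBayes; R 4.3.3) over 16620 genes, with two-sided tests; the code was tested on simulated data. The labels do not say which mice shared a cage or litter, so the p-values take each mouse as independent. The group sizes count mice and not cages, and whether mice of a cage were alike was not tested. Per-mouse values are given for the 6 or more members per direction with the smallest p, 3 per direction for age, the 5 with the largest spread and a fixed set of hippocampal and glial members. The members and lists were chosen with earlier results of these data known. Alternatives were other scalings, background correction, filters, probes, covariates, variance models and samples. Normexp, planned on mean signals, ran on the median signals. Some items are not reported here.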

Additional observations from a re-analysis of the deposited data

Results flagged for a closer look

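Among 66 groups of 4 mice, 2 for each of the 33 members described mouse by mouse, 2 values stood apart from the rest of their group by Dixon's criterion, which chance alone meets in about 1 in 20 groups. Kcna3 in Hydroxyurea 3 was -6.01, and the other treated mice were between -2.72 and -2.52. Kcnq1 in Control 1 was -4.87, and the other Control mice were between -3.82 and -3.66.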

How the results depend on the processing

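No member had an adjusted p under 0.05 in any alternative that was run. The 5 members at an unadjusted p under 0.05 became 13 with array weights and 10 without Control 1 and Hydroxyurea 2 together, an alternative added after seeing the data, where all genes gave 19.6% and 14.0%. Leaving out 1 array gave 4 to 12, the highest without Control 1, where all genes gave 15.2%, and 9 without Control 3 (8.54%). Members whose groups do not overlap numbered 4 (7.5% of all genes), became 8 with 19-week mice only (19.0%) and 12 without Control 1 and Hydroxyurea 2 together (23.4%), and ran from 4 to 8 with 1 array left out, 8 without Control 1 (17.4%) or Control 3 (11.4%). Of 71 members, the count at an unadjusted p under 0.05 lay above its share without Control 3 and slightly above it without Control 1. That count was also slightly above its share with 19-week mice only, at 6 members (6.64% of all genes). The same held with age as a covariate, at 6 members (7.05%). The other counts lay near or below their shares. The median log2 difference moved to -0.082 with each array centred on its median and ran from -0.041 to 0.025 with 1 array left out. For age, the 2 members at an unadjusted p under 0.05 became 1 with quantile normalization, 1 with the deposited value table and 4 with normexp, and ran from 1 to 5 with 1 array left out, 1 without Hydroxyurea 3 and 5 without Hydroxyurea 4. The causes were not tested.

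Same-numbered mice of the 2 groups deviated together with correlations of -0.21 to 0.20, and 1 of 4 correlated best with its own number, so the numbers were not taken to pair the mice. With the replicate number as a block, 0 members passed after adjustment, 5 had an unadjusted p under 0.05 (7.93% of all genes), 4 of them the same genes, and the median difference was -0.00056. The second brightest probe was run for single members only. The value table gave no log2 differences, and overlap was not counted for the covariate, block, weight and variance settings. Faint probes and 4 arrays per group limit what could be seen.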
